A study of Mus musculus with 12 samples.

Results

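Dusp1, Dusp2, Dusp4, Dusp5, Dusp6, Dusp10, Dusp14, Spry1, Spry2 and Spred1 encode brakes on mitogen-activated protein kinase (MAPK) signalling. They were taken by gene name from a table of read counts, where they are 10 of 55335 genes, and all 10 passed the filter on low counts that left 15702 genes. RNA came from CD8 T cells of the spleen of OT-I mice on the C57BL/6 background, whose T cells share 1 transgenic receptor that recognises ovalbumin. The cells had received a retroviral vector, either the control vector or one that carried the transcription factor Batf3, and transduced cells were sorted. They were cultured for 6 h, either in IL-15 (100 ng/ml, called non-stimulated) or on plate-bound antibody to CD3e with antibody to CD28, each at 1 µg/ml (stimulated). The 4 groups were thus control non-stimulated, Batf3 non-stimulated, control stimulated and Batf3 stimulated cells, with 3 libraries each and 12 in all. IL-15 is named only for the non-stimulated cultures, so as far as the labels say both the antibodies and IL-15 differ between the cultures. All 4 groups went through transduction and sorting, Batf3 was expressed from a vector and not from its own locus, and no age of the mice was found in the labels. The replicates are called technical in the labels, so every SD, SE and p-value below measures technical spread and none covers mice or transductions.

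When the T cell receptor and CD28 are engaged, RAS starts a kinase chain that ends in ERK, and parallel chains end in JNK and p38. Dual-specificity phosphatases (the Dusp genes) remove the phosphates that keep ERK, JNK or p38 active, whereas Sprouty proteins (Spry) and Sprouty-related proteins with an EVH domain (Spred) act upstream, at RAS and RAF. Many of these genes are themselves switched on by MAPK signalling and so form negative feedback loops, which in T cells limit cytokine production and division.

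Sequence upstream of the start site is shown for 5 of the genes, chosen to set genes with matches to motifs of signal-responsive factors beside Spry1, the gene with the largest fold change on stimulation, and Dusp10, which fell on stimulation. A promoter from RefSeq (build GRCm38.p6, 250 bases before to 50 after the start) was matched for 9 of the 10 genes, and Dusp4 was not matched. For Dusp1, Dusp10 and Dusp14 the whole window lies inside the gene span given below, so any start farther upstream was not searched. The 250 bases before the start are printed 5′ to 3′ on the strand of the gene, with matches to the CRE, CRE core, AP-1, EGR and CArG box motifs in capitals:
Dusp1, chr17:26508473-26508722, minus strand: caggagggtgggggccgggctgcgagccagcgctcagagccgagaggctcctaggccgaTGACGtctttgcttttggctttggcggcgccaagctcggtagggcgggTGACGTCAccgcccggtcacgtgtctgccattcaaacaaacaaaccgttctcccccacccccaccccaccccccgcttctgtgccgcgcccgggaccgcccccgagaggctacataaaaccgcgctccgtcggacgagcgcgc
Dusp2, chr2:127335909-127336158, plus strand: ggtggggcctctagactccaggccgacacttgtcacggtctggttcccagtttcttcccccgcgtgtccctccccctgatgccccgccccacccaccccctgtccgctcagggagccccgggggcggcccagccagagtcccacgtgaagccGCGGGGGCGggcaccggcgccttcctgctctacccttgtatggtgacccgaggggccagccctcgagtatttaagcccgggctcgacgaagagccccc
Dusp5, chr19:53528895-53529144, plus strand: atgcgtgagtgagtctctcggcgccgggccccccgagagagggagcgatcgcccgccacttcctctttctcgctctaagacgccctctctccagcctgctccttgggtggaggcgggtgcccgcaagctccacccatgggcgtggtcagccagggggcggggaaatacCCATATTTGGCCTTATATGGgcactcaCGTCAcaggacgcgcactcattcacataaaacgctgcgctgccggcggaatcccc
Spry1, chr3:37639697-37639946, plus strand: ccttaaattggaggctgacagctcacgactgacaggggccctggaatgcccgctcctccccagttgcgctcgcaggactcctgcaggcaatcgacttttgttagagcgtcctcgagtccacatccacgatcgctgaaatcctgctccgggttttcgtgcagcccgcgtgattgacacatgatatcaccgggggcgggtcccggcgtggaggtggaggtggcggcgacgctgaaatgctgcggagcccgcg
Dusp10, chr1:184034131-184034380, plus strand: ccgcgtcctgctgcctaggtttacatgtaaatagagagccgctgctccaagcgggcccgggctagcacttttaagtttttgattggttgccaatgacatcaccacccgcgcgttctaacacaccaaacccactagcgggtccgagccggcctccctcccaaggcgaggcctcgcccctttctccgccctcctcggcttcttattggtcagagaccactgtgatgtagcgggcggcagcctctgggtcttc
The CRE, the site bound by CREB and ATF factors (TGACGTCA), was found in 1 of the 9 promoters, Dusp1, at -143 from the start, and in 1.79% of 32851 RefSeq promoters of the same length. The CRE core (TGACG, which also matches within the full site) occurred in Dusp1, Dusp2 and Dusp5 and in 20.8% of all promoters. Its match in Dusp2 began at +6, after the start, and so lies outside the bases printed. Dusp5 held 2 adjacent CArG boxes, the site of serum response factor, with first bases at -82 and -72, and 1.63% of all promoters held at least 1. An EGR site (GCGNGGGCG) was found in Dusp2 at -98 and in 5.55% of all promoters. No AP-1 site (TGANTCA, 7.81% of all promoters) and no ETS site (CCGGAAGT, 3.89%) was in any of the 9 windows. The short NFAT core (GGAAA, left in lower case) was in Dusp1 (at +19, outside the bases printed), Dusp5, Dusp6, Spry2 and Spred1. It was in 61.3% of all promoters. Spry1, Dusp10 and Dusp14 held none of the motifs searched on either strand. These are matches of letters within 1 window and were not tested as binding sites.

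Library totals lay between 14211564 and 14468231 counts, and levels are given as CPM (counts scaled to a common library size, with TMM factors), where 3 counts in a library are worth between 0.191 and 0.228 CPM. Batf3, which checks the vector labels, was at 6.76 ± 0.83 CPM (SD, n = 3) in control and 469.8 ± 3.67 CPM in Batf3 non-stimulated cells, and at 18.3 ± 0.73 against 427 ± 11.9 CPM in stimulated cells. The 8 CD8 T cell markers summed to between 2569.9 and 3374 CPM and none was at 0, while Cd4 stayed at or under 0.667 CPM. Markers of other cells were low but moved between groups, given here in the order control and Batf3 non-stimulated, control and Batf3 stimulated. The 6 myeloid markers summed to 2.45 to 2.98, 5.25 to 6.08, 5.55 to 8.30 and 10.1 to 13.3 CPM, with Lyz2 at 0 in every library. The 3 NK cell markers summed to 2.45 to 3.91, 0.512 to 0.960, 0.532 to 1.06 and 0.520 to 1.10 CPM, with Ncr1 and Klra8 at 0. The 5 B cell markers summed to 3.11 to 4.58, 4.16 to 6.24, 0.684 to 1.45 and 1.18 to 1.85 CPM, with Ms4a1 at 0, and the 3 erythroid markers reached at most 1.98 CPM, with Hbb-bs at 0. The sum of 4 dendritic cell markers also moved with both the vector and the culture, from 15.2 to 16.7 CPM in control and 21.6 to 22.5 CPM in Batf3 non-stimulated libraries to 32.2 to 36.4 CPM and 53.0 to 56.4 CPM in the stimulated ones. Itgax and Zbtb46 made up nearly all of it, Flt3 stayed at or under 0.995 CPM and Siglech was at 0, and the part of any of these markers in the results below was not tested. Replicate 3 of Batf3 stimulated cells differed most from its own group (chi-square per degree of freedom 2.96 and 2.49, other replicate pairs 1.42 to 2.08) and had the lowest mitochondrial share (1.64%, others up to 2.31%), and no call on the 10 genes was lost or gained without it.

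Stimulation of control cells raised 8 of the 10 genes and lowered 1, Dusp10, while Dusp1 did not pass the test (edgeR's quasi-likelihood test, adjusted p under 0.05 over all tested genes). Of all genes tested, 39.6% were called higher and 40.7% lower in that comparison. In Batf3 cells 8 genes rose and 2 fell, against 41.2% and 41.4% of all genes. The median log2 change of the 10 genes was 2.31 in control and 2.89 in Batf3 cells, beside -0.01 and 0.01 over all tested genes. The change was called and at least 2-fold for 8 genes in control and 7 in Batf3 cells. The stimulated and non-stimulated libraries did not overlap for 10 genes in control and 9 in Batf3 cells. No share over all genes was worked out for these counts, so they do not set the 10 genes apart. In bulk RNA, a change in the number of cells with a transcript and a change in its amount per cell cannot be told apart. The non-stimulated control libraries enter both the stimulation comparison in control cells and the Batf3 comparison in non-stimulated cells, and each other group is likewise shared by a pair of comparisons. Scaling by library sizes alone shifted the median of all genes by -0.19 (control) and -0.21 (Batf3) in the stimulation comparisons. Values of the 10 genes that it moved by over 1.5 times are given with the gene.

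**Figure D1:**
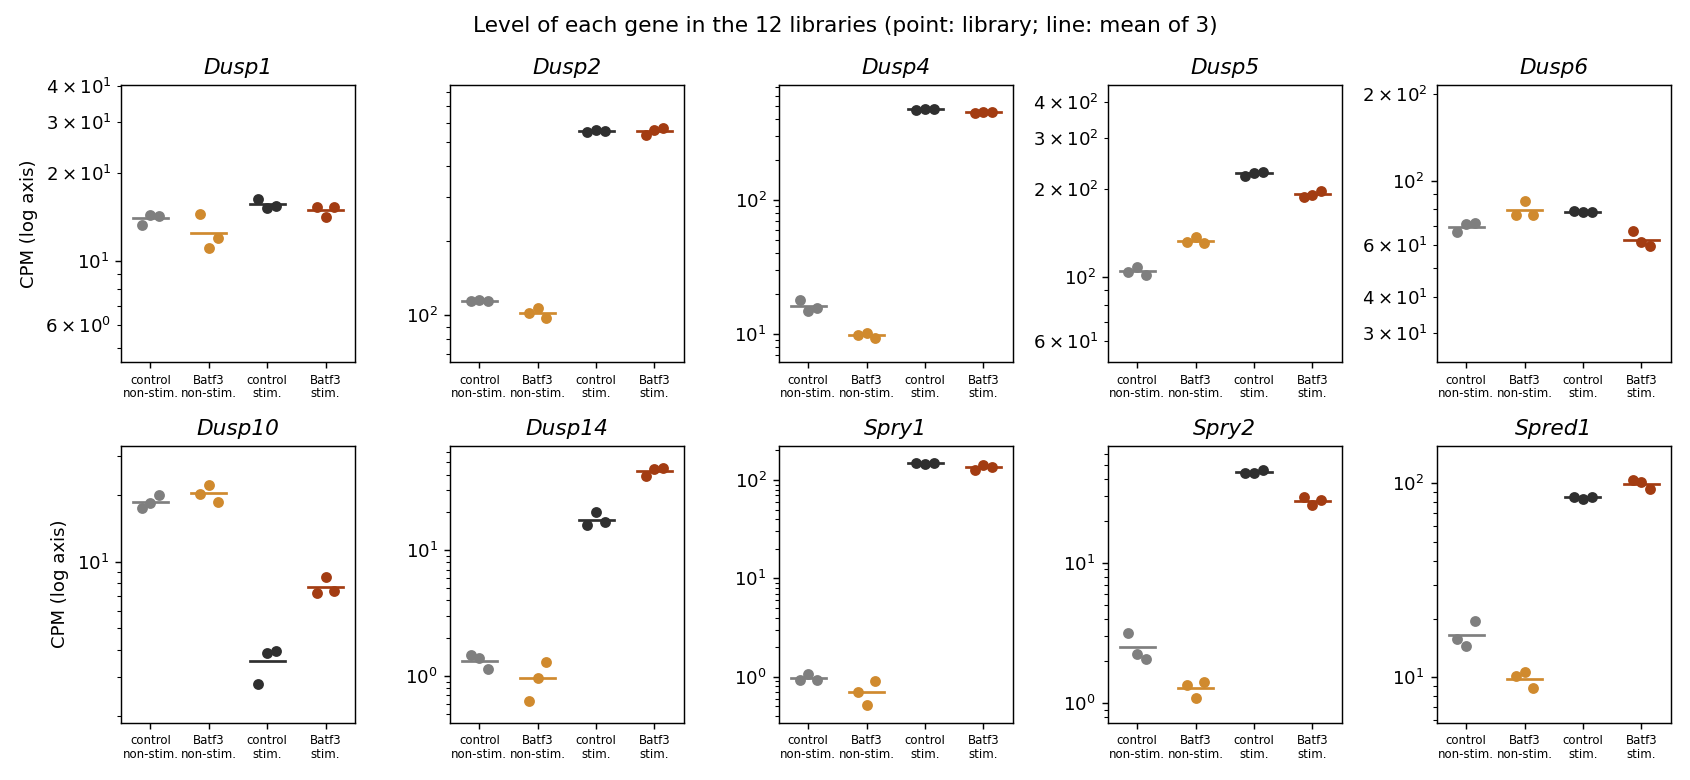
Level of each of the 10 genes in the 12 libraries, as CPM on log axes that differ between panels. Points are libraries and lines the mean of 3, in control and Batf3 cells, non-stimulated (non-stim.) and stimulated (stim.). Spry1, Spry2, Dusp4 and Dusp14 were more than 10-fold higher in stimulated than in non-stimulated libraries, and Dusp10 was lower.

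Of the nuclear phosphatases, Dusp4, Dusp2 and Dusp5 all rose on stimulation. Dusp4, a nuclear phosphatase that acts on ERK and JNK (ENSMUSG00000031530, GRCm38 chr8:34807297-34819894, plus strand), changed most among them. Its CPM was 17.8, 14.8 and 15.6 in the control and 9.87, 10.2 and 9.28 in the Batf3 non-stimulated libraries, and 469, 475 and 480.4 in the control and 446, 449.8 and 454 in the Batf3 stimulated libraries. All 6 stimulated libraries thus lay far above the 6 others, and within each culture the Batf3 libraries lay below the control libraries. Dusp4 rose 29.5-fold in control cells (log2 4.88 ± 0.06 SE, adjusted p = 1.11e-67) and 45.9-fold in Batf3 cells (log2 5.52 ± 0.08, adjusted p = 9.75e-69).

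Dusp2, a nuclear ERK phosphatase first described in activated T cells (ENSMUSG00000027368, chr2:127336159-127338376, plus strand), had a high level before stimulation. It was at 114, 116 and 114 CPM in control and 102, 107 and 97.3 CPM in Batf3 non-stimulated libraries, and at 553, 562 and 556 CPM in control and 536, 564 and 569 CPM in Batf3 stimulated libraries. The stimulated libraries of both vectors overlapped each other and lay above all non-stimulated ones. Dusp2 rose 4.85-fold in control cells (log2 2.28 ± 0.04, adjusted p = 5.69e-57) and 5.45-fold in Batf3 cells (log2 2.45 ± 0.04, adjusted p = 1.82e-58).

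Dusp5, a nuclear phosphatase specific for ERK (ENSMUSG00000034765, chr19:53529109-53542431, plus strand), carries the CArG boxes shown above. Its CPM was 104, 108 and 101 in control and 132, 137 and 131 in Batf3 non-stimulated libraries, then 223, 229 and 229.7 in control and 189, 191 and 198 in Batf3 stimulated libraries. The order of the vectors was thus opposite in the 2 cultures, with no overlap in either. Dusp5 rose 2.17-fold in control cells (log2 1.12 ± 0.04, adjusted p = 1.16e-37) and 1.45-fold in Batf3 cells (log2 0.53 ± 0.04, adjusted p = 1.18e-21), and by 0.32 on the log2 scale in Batf3 cells under library sizes alone. Its exons share 547 bp (22.1% of its exon length) with an antisense gene, AC137853.2, and the strand setting of the counting is not given here, so reads of the 2 genes cannot be told apart (no counts of AC137853.2 were used here).

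Dusp1 and Dusp6 changed little. Dusp1, a nuclear phosphatase of p38, JNK and ERK and a classical immediate-early gene (ENSMUSG00000024190, chr17:26505590-26562128, minus strand), was at 13.3, 14.4 and 14.3 CPM in control and 14.5, 11.1 and 11.97 CPM in Batf3 non-stimulated libraries. In stimulated libraries it was at 16.3, 15.1 and 15.4 CPM in control and 15.3, 14.2 and 15.3 CPM in Batf3 cells. The control libraries did not overlap between cultures, yet the change did not pass the test (log2 0.16 ± 0.10, 95% interval -0.03 to 0.35, adjusted p = 0.122), and it was -0.03 under library sizes alone. In Batf3 cells, where 1 non-stimulated library lay within the stimulated range, Dusp1 was called higher (log2 0.26 ± 0.10, adjusted p = 0.0137, range 0.00183 to 0.702 over the alternatives). That call was lost under library sizes alone (0.04, adjusted p = 0.702), with no filter on low counts (0.21, adjusted p = 0.075), without Batf3 non-stimulated replicate 2 (0.16, adjusted p = 0.15) or replicate 3 (0.21, adjusted p = 0.0671) and without Batf3 stimulated replicate 1 (0.21, adjusted p = 0.075).

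Dusp6, the cytoplasmic phosphatase specific for ERK (ENSMUSG00000019960, chr10:99263231-99267489, plus strand), moved in opposite directions with the 2 vectors under TMM scaling. It was at 66.5, 70.9 and 71.4 CPM in control and 76.4, 85.6 and 76.2 CPM in Batf3 non-stimulated libraries, against 78.7, 78.1 and 78.3 CPM in control and 67.0, 61.6 and 59.6 CPM in Batf3 stimulated libraries. Stimulated libraries were above the non-stimulated ones in control cells and below them in Batf3 cells, without overlap in either. Dusp6 rose by 0.17 ± 0.05 on the log2 scale in control cells (adjusted p = 0.0013) and fell by 0.34 ± 0.05 in Batf3 cells (adjusted p = 6.83e-09). Under library sizes alone the first value was -0.02, so that its call was lost (adjusted p = 0.769, range 0.000386 to 0.769 over the alternatives) and its sign reversed, and the second was -0.55.

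Dusp10, a phosphatase of JNK and p38 (ENSMUSG00000039384, chr1:184013302-184075636, plus strand), was the gene that fell with stimulation in cells of both vectors. Its CPM was 17.5, 18.4 and 20.0 in control and 20.3, 22.3 and 18.7 in Batf3 non-stimulated libraries, which overlapped. It was 2.81, 3.88 and 3.96 in control and 7.21, 8.52 and 7.37 in Batf3 stimulated libraries, with all 3 Batf3 libraries above the control ones. Dusp10 fell 5.24-fold in control cells (log2 -2.39 ± 0.14, adjusted p = 5.94e-26) and 2.65-fold in Batf3 cells (log2 -1.41 ± 0.11, adjusted p = 4.01e-19).

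Dusp14, a small atypical phosphatase that lacks the usual MAPK-binding domain and is known as a negative regulator of T cell receptor signalling (ENSMUSG00000018648, chr11:84048041-84069261, minus strand), was near the limit of counting before stimulation. It was at 1.46, 1.39 and 1.12 CPM in control and 0.637, 0.960 and 1.28 CPM in Batf3 non-stimulated libraries, with overlap. In stimulated libraries it was at 15.8, 20.0 and 16.7 CPM in control and 39.2, 44.0 and 45.2 CPM in Batf3 cells, so that every Batf3 library was above every control library. Dusp14 rose 13.1-fold in control cells (log2 3.72 ± 0.21, adjusted p = 7.06e-31) and 44.3-fold in Batf3 cells (log2 5.47 ± 0.23, adjusted p = 1.01e-42).

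Spry1, Spry2 and Spred1 rose on stimulation with either vector. Spry1, an inhibitor of RAS-ERK signalling that T cells induce on receptor engagement (ENSMUSG00000037211, chr3:37639947-37644598, plus strand), had only 14, 16 and 14 counts in control and 11, 8 and 14 counts in Batf3 non-stimulated libraries, or 0.929, 1.06 and 0.926 CPM and 0.700, 0.512 and 0.896 CPM. Stimulated libraries were at 149, 147 and 149 CPM in control and 127, 140.5 and 136 CPM in Batf3 cells. As a fold change, though not in CPM, the gap between cultures was the largest of the 10 genes, and it rests on these few non-stimulated counts. In CPM every Batf3 library was below every control library within each culture, but the non-stimulated groups shared a count of 14. Their separation there thus rests on the scaling. Spry1 rose 151-fold in control cells (log2 7.24 ± 0.22, adjusted p = 2.24e-59) and 189-fold in Batf3 cells (log2 7.56 ± 0.25, adjusted p = 4.51e-59). Its exons share 710 bp (24.4%) with Gm42922 on the opposite strand, which had at most 1 count in non-stimulated and 6 to 16 counts in stimulated libraries, and reads of the 2 genes cannot be told apart without the strand setting.

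Spry2, a second Sprouty inhibitor of receptor signalling to RAS (ENSMUSG00000022114, chr14:105891947-105896819, minus strand), was at 3.18, 2.25 and 2.05 CPM in control and 1.34, 1.09 and 1.41 CPM in Batf3 non-stimulated libraries. In stimulated libraries it was at 43.9, 43.5 and 45.8 CPM in control and 29.3, 25.7 and 28.1 CPM in Batf3 cells. The Batf3 libraries were the lower ones in both cultures, without overlap. Spry2 rose 17.7-fold in control cells (log2 4.15 ± 0.15, adjusted p = 7.2e-42) and 21.6-fold in Batf3 cells (log2 4.43 ± 0.20, adjusted p = 1.43e-38).

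Spred1, which brings the RAS GTPase-activating protein neurofibromin to the membrane (ENSMUSG00000027351, chr2:117121374-117182279, plus strand), was at 15.8, 14.5 and 19.6 CPM in control and 10.1, 10.7 and 8.77 CPM in Batf3 non-stimulated libraries. It was at 85.0, 83.3 and 85.6 CPM in control and 104, 101 and 93.8 CPM in Batf3 stimulated libraries. Batf3 libraries were thus below the control libraries in non-stimulated cells and above them in stimulated cells. Spred1 rose 5.09-fold in control cells (log2 2.35 ± 0.07, adjusted p = 7.57e-37) and 10.1-fold in Batf3 cells (log2 3.34 ± 0.08, adjusted p = 5.97e-43).

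To compare the genes with each other, CPM was divided by exon length in kb (RPKM). In control non-stimulated cells the order of levels began with Dusp2 (57.3 ± 0.488 RPKM, SD, n = 3), Dusp5 (42.2 ± 1.36) and Dusp6 (22.2 ± 0.854). Dusp10 (6.13 ± 0.411) and Dusp4 (5.87 ± 0.557) followed and overlapped, and then came Dusp1 (4.23), Spred1 (2.45), Spry2 (1.196), Dusp14 (0.681) and Spry1 (0.334), each apart from the next. In control stimulated cells the order was Dusp2 (278 ± 2.34 RPKM), Dusp4 (173 ± 2.00), Dusp5 (91.8 ± 1.48), Spry1 (51.0 ± 0.321), Dusp6 (25.0), Spry2 (21.3), Spred1 (12.5), Dusp14 (9.01), Dusp1 (4.72) and Dusp10 (1.17), with no neighbours overlapping. Spry1 was thus last before and in place 4 after stimulation, and Dusp10 in place 4 before and last after it.

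The order in Batf3 cells differed from this at a few places. In Batf3 non-stimulated cells Dusp5 (53.9 ± 1.31 RPKM) and Dusp2 (51.0 ± 2.54) overlapped at the top, Dusp6 was at 25.4 RPKM and Dusp10 at 6.71 RPKM. Further down Dusp1 (3.77) overlapped Dusp4 (3.58) and Spry2 (0.612) overlapped Dusp14 (0.493), with Spred1 (1.45) between these pairs and Spry1 last (0.242). In Batf3 stimulated cells the first 4 genes were again Dusp2 (278 ± 8.89), Dusp4 (164), Dusp5 (77.9) and Spry1 (46.3). Dusp14 (22.0 ± 1.63) overlapped Dusp6 (20.0 ± 1.22), Spred1 (14.7) overlapped Spry2 (13.3), and Dusp1 (4.51) and Dusp10 (2.53) were lowest.

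Summed over the 7 phosphatases, RPKM was 139 ± 1.85 in control and 145 ± 5.91 in Batf3 non-stimulated cells, and 583 ± 5.69 and 569 ± 12.4 in stimulated cells. The make-up of that sum changed with the culture. In control cells the share of Dusp4 was 4.24% ± 0.451 without and 29.7% ± 0.226 with stimulation, that of Dusp5 30.4% ± 0.676 and 15.7% ± 0.125, and that of Dusp6 16.03% ± 0.517 and 4.29% ± 0.0593. Dusp2 held 41.3% ± 0.208 and 47.7% ± 0.253. The sum of the 3 Sprouty and SPRED genes was 3.98 ± 0.346 RPKM in control and 2.31 ± 0.0574 RPKM in Batf3 non-stimulated cells, and 84.7 ± 1.02 and 74.3 ± 1.32 RPKM in stimulated cells. In control cells Spred1 made up 61.5% ± 6.75 of this sum before stimulation and Spry1 60.2% ± 0.391 after it. These sums and shares are descriptions and were not tested.

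**Figure D2:**
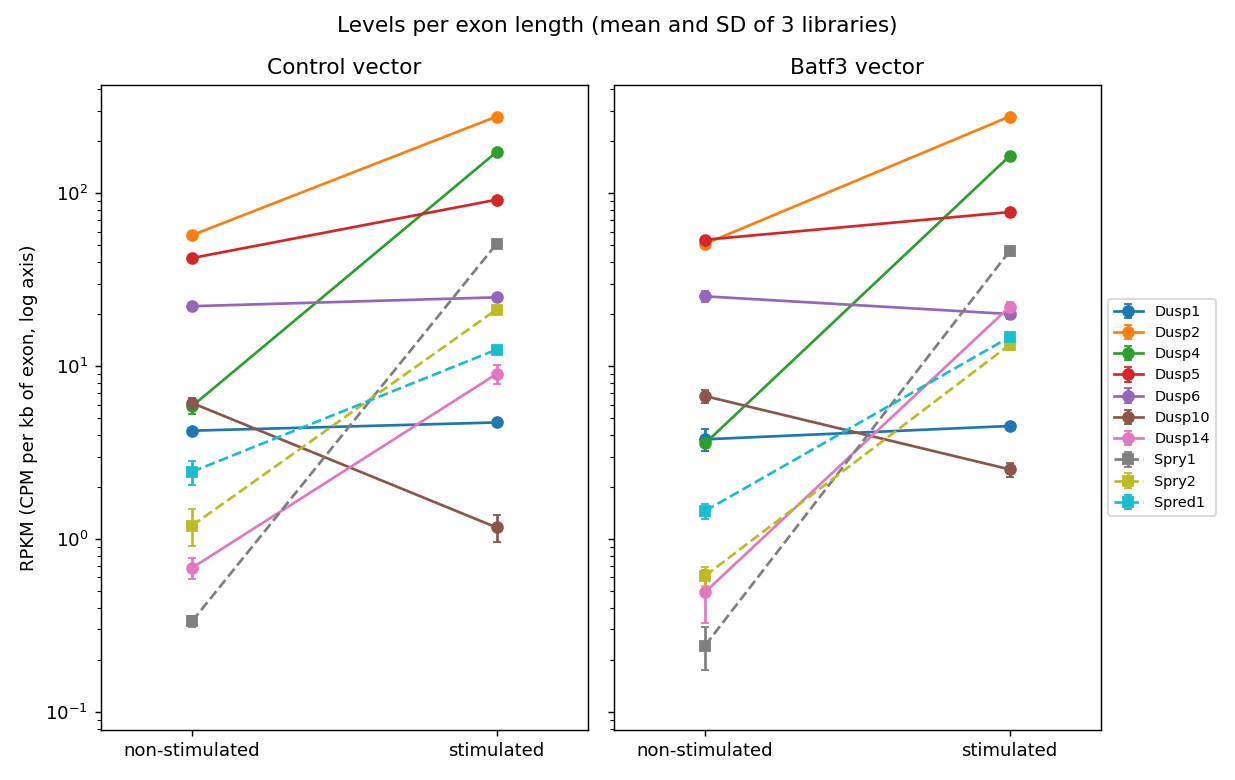
RPKM of the 10 genes on a log axis, mean and SD of 3 libraries, in non-stimulated and stimulated cells with the control vector (left) and the Batf3 vector (right). Circles with solid lines are Dusp genes and squares with dashed lines Spry and Spred genes. Spry1 was lowest without and in place 4 with stimulation for both vectors, and Dusp10 was last in stimulated cells.

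Batf3 cells were compared with control cells first without stimulation. With technical replicates, a difference between the vectors cannot be told apart from one between the transduced cell batches. Dusp5 and Dusp6 were higher with Batf3 and Dusp2, Dusp4, Spry2 and Spred1 were lower, while 4 genes did not pass the test. Of all genes tested, 16.3% were called higher and 23% lower. The median log2 difference was -0.31 for the 10 genes and -0.02 for all tested genes. In CPM, 7 genes had libraries that did not overlap, and the share over all genes was not worked out. None of the called differences reached 2-fold. The largest was that of Spry2 (2.50 ± 0.605 CPM in control and 1.28 ± 0.168 CPM in Batf3 cells), a log2 difference of -0.96 ± 0.24 with an adjusted p of 0.000389. It rests on few counts, 48, 34 and 31 in control and 21, 17 and 22 in Batf3 libraries. Over the alternatives it lay between -1.09 and -0.75, and the call was kept (adjusted p at most 0.0155). Spred1 (log2 -0.75 ± 0.10, adjusted p = 2.66e-09) and Dusp4 (log2 -0.71 ± 0.09, adjusted p = 3.85e-12) followed, and Dusp2 was lower by a small amount (log2 -0.17 ± 0.04, adjusted p = 8.09e-05, and -0.09 under library sizes alone). Dusp5 was higher by 0.35 ± 0.04 (adjusted p = 2.14e-12) and Dusp6 by 0.19 ± 0.05 (adjusted p = 0.000846).

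Among the genes that did not pass, Spry1 had the widest interval, with a log2 difference of -0.46 (95% interval -1.12 to 0.19, adjusted p = 0.27). Its libraries, at 8 to 16 counts each, did not overlap in CPM, but both groups had a library with 14 counts. Dusp14, also at few counts, was at -0.46 (-1.05 to 0.12, adjusted p = 0.221). Dusp10 was at 0.13 (-0.04 to 0.30, adjusted p = 0.235). Dusp1 was at -0.17 (-0.35 to 0.02, adjusted p = 0.174, range 0.0305 to 0.576 over the alternatives) and passed without Batf3 non-stimulated replicate 1 (-0.28, adjusted p = 0.0305).

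In stimulated cells Dusp10, Dusp14 and Spred1 were higher with Batf3, and Dusp4, Dusp5, Dusp6, Spry1 and Spry2 were lower, against 14.8% and 14.6% of all genes tested. The median log2 difference was -0.07 for the 10 genes and 0.00 for all tested genes. In CPM, 8 genes had libraries that did not overlap, and the share over all genes was not worked out. Dusp14 was 2.44-fold higher with Batf3 (42.8 ± 3.17 CPM against 17.5 ± 2.21 CPM, log2 1.29 ± 0.08, adjusted p = 1.94e-20). Dusp10 was 2.17-fold higher (7.70 ± 0.717 CPM against 3.55 ± 0.639 CPM, log2 1.11 ± 0.16, adjusted p = 1.66e-08). These were the 2 called differences of at least 2-fold. Spred1 was higher by 0.24 ± 0.05 (adjusted p = 0.000224).

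Spry2 was the most lowered of the 10 genes in stimulated cells (27.7 ± 1.85 CPM against 44.4 ± 1.21 CPM, log2 -0.68 ± 0.07, adjusted p = 5.53e-12). Dusp6 (log2 -0.32 ± 0.05, adjusted p = 4.35e-07) and Dusp5 (log2 -0.24 ± 0.04, adjusted p = 3.97e-08) were lower too. Spry1 was lower by a small amount (log2 -0.14 ± 0.04, adjusted p = 0.00605, range 0.000652 to 0.0812 over the alternatives), and its call was lost under library sizes alone (-0.09, adjusted p = 0.0812) and without Batf3 stimulated replicate 1 (-0.11, adjusted p = 0.0752). Dusp4 was the least secure (log2 -0.08 ± 0.04, adjusted p = 0.0391, range 0.00644 to 0.468). Its call was lost under library sizes alone (-0.03, adjusted p = 0.468). It was also lost, at a difference of nearly the same size, with a replicate block (-0.08, adjusted p = 0.0514), without Batf3 stimulated replicate 1 (-0.08, adjusted p = 0.0791) or replicate 2 (-0.09, adjusted p = 0.0544), and without control stimulated replicate 2 (-0.09, adjusted p = 0.0587) or replicate 3 (-0.08, adjusted p = 0.0833). Dusp2 did not pass, at a log2 difference of -0.00 with an interval of -0.07 to 0.07 (adjusted p = 0.984), nor did Dusp1, at -0.07 with an interval of -0.26 to 0.12 (adjusted p = 0.656).

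**Figure D3:**
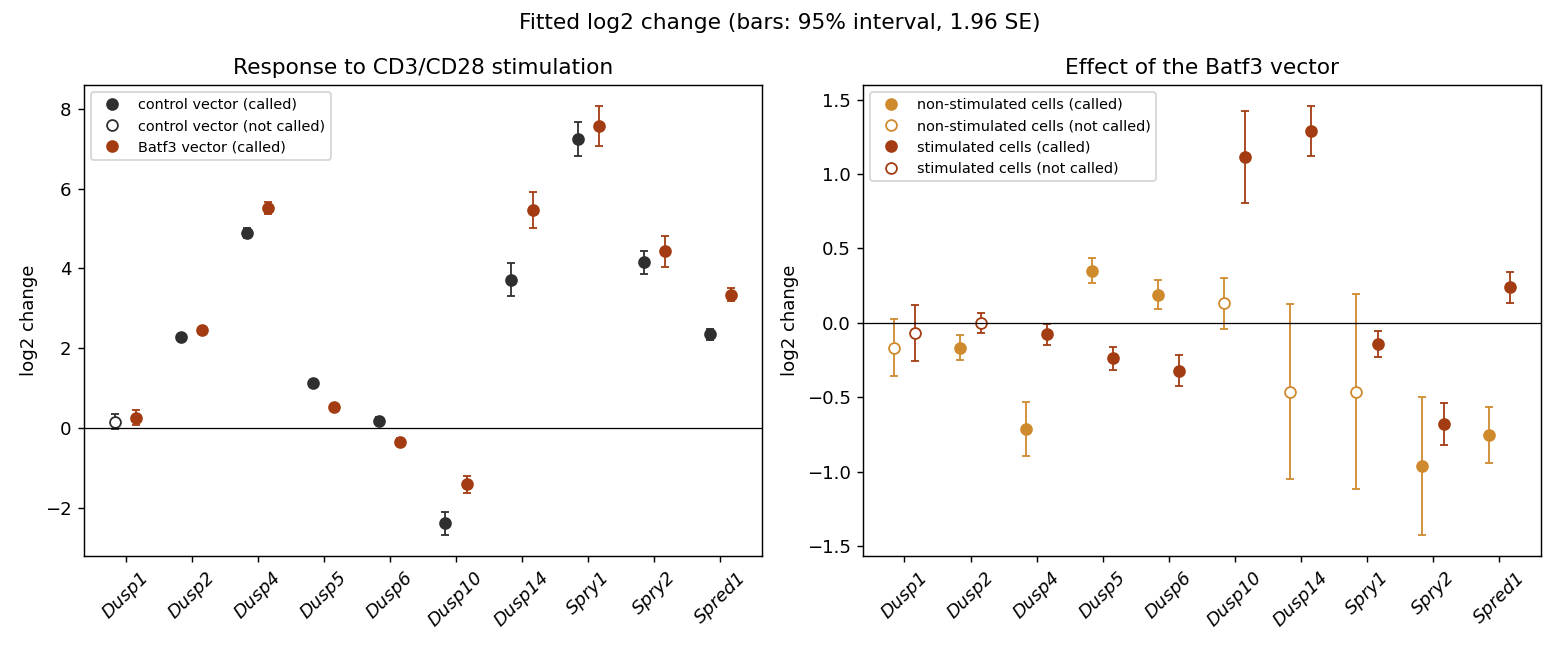
Fitted log2 change of each gene with its 95% interval (bars), for stimulated against non-stimulated cells (left) and for Batf3 against control cells (right). Filled points passed the test at an adjusted p under 0.05 and open points did not. On the right, Spred1, Dusp5, Dusp6 and Dusp14 lie on opposite sides of 0 in the 2 cultures (Dusp14 not called in non-stimulated cells), and Dusp10 and Dusp14 are highest in stimulated cells.

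The vector by stimulation interaction asks whether the Batf3 effect in stimulated cells differs from that in non-stimulated cells. It passed the test for 7 of the 10 genes, above 0 for Dusp2, Dusp4, Dusp10, Dusp14 and Spred1 and below 0 for Dusp5 and Dusp6, against 14.6% and 6.08% of all genes tested. The median over the 10 genes was 0.30, beside 0.05 over all tested genes. The value was 1.75 ± 0.31 for Dusp14 (adjusted p = 9.95e-06), the only one of at least 2-fold, 0.99 ± 0.11 for Spred1 (adjusted p = 1.48e-10) and 0.98 ± 0.18 for Dusp10 (adjusted p = 1.33e-05). Spred1, Dusp5 (-0.59 ± 0.06, adjusted p = 5.03e-15) and Dusp6 (-0.51 ± 0.07, adjusted p = 2.32e-08) were called in opposite directions in the 2 cultures. Dusp4 was called lower with Batf3 in both, by less in stimulated cells (0.64 ± 0.10, adjusted p = 4.22e-09).

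Dusp2 was called lower with Batf3 in non-stimulated and not in stimulated cells, with an interaction of 0.17 ± 0.06 (adjusted p = 0.00447, range 0.000891 to 0.1 over the alternatives). Its call was lost with no filter on low counts (0.12, adjusted p = 0.1), without Batf3 stimulated replicate 2 (0.12, adjusted p = 0.0748) and without control stimulated replicate 1 (0.13, adjusted p = 0.0676) or replicate 3 (0.13, adjusted p = 0.066). For Spry2, lower with Batf3 in both cultures, the interaction was 0.28 with an interval of -0.20 to 0.76 (adjusted p = 0.462). Spry1 was at 0.32 (-0.34 to 0.98, adjusted p = 0.553) and Dusp1 at 0.10 (-0.17 to 0.37, adjusted p = 0.689).

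Other genes of the pathway were taken from lists by function, and their counts are descriptions to be read against the shares of all genes given above. Of 12 tested other dual-specificity phosphatases, 8 rose and 3 fell on stimulation in control cells (median log2 0.77), and 6 rose and 4 fell in Batf3 cells (median 0.49). With Batf3, 1 was higher and 1 lower in non-stimulated cells, and 2 were higher and 5 lower in stimulated cells. Dusp16, a phosphatase of JNK and p38, was the lower one in non-stimulated cells (18.8 ± 1.62 CPM in control and 10.2 ± 0.906 CPM in Batf3 cells, log2 -0.89 ± 0.09), and it rose on stimulation of both control (log2 1.43 ± 0.07) and Batf3 cells (2.27 ± 0.08), to 50.7 ± 1.51 and 49.1 ± 2.44 CPM. Dusp22, an atypical phosphatase, was lower with Batf3 in stimulated cells (27.8 ± 1.31 CPM in control and 17.4 ± 1.27 CPM in Batf3 cells, log2 -0.68 ± 0.08). Dusp18 (log2 2.66 ± 0.31) and Dusp28 (log2 -2.80 ± 0.28) changed most on stimulation of control cells, both at few counts.

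Of the other Sprouty and SPRED genes 3 were tested, of which 1 rose and 1 fell on stimulation in control cells and 2 rose in Batf3 cells. Spry4 rose on stimulation in control cells (log2 1.89 ± 0.20) and in Batf3 cells (2.39 ± 0.21). Spred2, the close relative of Spred1, was at 15.3 ± 0.841 CPM in control and 9.41 ± 0.545 CPM in Batf3 non-stimulated cells, and at 12.3 ± 0.0814 CPM and 16.5 ± 1.55 CPM in stimulated cells. As with Spred1, its levels with Batf3 were lower in non-stimulated cells (log2 -0.70 ± 0.10, adjusted p = 1.83e-08) and higher in stimulated cells (log2 0.42 ± 0.10, adjusted p = 0.000426), and the interaction was 1.13 ± 0.14 (adjusted p = 1.73e-09).

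Other brakes on RAS and ERK signalling moved in both directions. Of 17 RAS GTPase-activating proteins and other ERK brakes, 8 rose and 8 fell on stimulation of control cells, near the shares over all genes, and 9 rose and 8 fell in Batf3 cells. Rasa3, a RAS GTPase-activating protein, fell from 424 ± 11.9 CPM to 14.2 ± 1.195 CPM in control cells (log2 -4.90 ± 0.07) and from 532 ± 2.41 CPM to 37.3 ± 2.21 CPM in Batf3 cells (log2 -3.83 ± 0.05). Dgka, the diacylglycerol kinase that removes the lipid that activates RasGRP1, fell from 387 ± 3.46 CPM to 13.4 ± 1.197 CPM in control cells (log2 -4.85 ± 0.07). Rasal1 (log2 2.61 ± 0.18) and Rasa2 (log2 1.43 ± 0.05) rose. With Batf3, 2 of the 17 were higher and 4 lower in non-stimulated cells, and 6 higher and 2 lower in stimulated cells, where Rasa3 differed most (log2 1.39 ± 0.08). Their interaction was called above 0 for 6 and below 0 for none of the 17.

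Of 18 genes of the RAS to ERK core, 7 rose and 8 fell on stimulation with either vector, also close to the shares over all genes. Ksr1, a scaffold of the RAF-MEK-ERK chain, rose (log2 3.57 ± 0.06 in control cells), and Mapk3, which encodes an ERK kinase, fell from 42.5 ± 1.05 to 6.59 ± 0.722 CPM (log2 -2.69 ± 0.10). With Batf3, 4 were higher and 5 lower in non-stimulated cells, with Map2k1, an ERK-activating kinase, the most lowered (log2 -0.58 ± 0.05), and 5 were higher and 2 lower in stimulated cells. Of 19 tested genes of the JNK and p38 core, 7 rose and 11 fell in control and 9 rose and 9 fell in Batf3 cells on stimulation. Gadd45b, an activator of p38 signalling, rose by 2.97 ± 0.05 and Map2k3, a p38-activating kinase, by 2.80 ± 0.04 on the log2 scale in control cells. With Batf3, 3 were higher and 5 lower in non-stimulated cells, and 8 higher and 1 lower in stimulated cells, led by Map3k1 (log2 0.70 ± 0.07) and Tab2 (log2 0.58 ± 0.04). As in the list of ERK brakes, the interaction was called in 1 direction only in both core lists. It was above 0 for 6 of the 18 RAS to ERK core genes and for 7 of the 19 JNK and p38 core genes.

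A last list held genes known to be induced through ERK. The activity of ERK was not measured, so their levels describe RNA only. Of 18 such genes, 17 rose and 1 fell on stimulation of control cells (median log2 1.63), and 16 rose and 1 fell in Batf3 cells (median 1.78). The one that fell in both was Zfp36, which encodes an mRNA decay factor (log2 -1.12 ± 0.05 in control and -0.81 ± 0.05 in Batf3 cells). With Batf3, 4 were higher and 10 lower in non-stimulated cells (median -0.27), and 9 were higher and 3 lower in stimulated cells (median 0.14). Egr3, an early growth response factor, was lower in non-stimulated cells (25.9 ± 0.892 CPM in control and 17.2 ± 1.06 CPM in Batf3 cells, log2 -0.59 ± 0.07), while Fos was higher (12.4 ± 0.456 and 18.3 ± 1.25 CPM, log2 0.56 ± 0.09). In stimulated cells Ccnd1, the gene of cyclin D1, was higher with Batf3 (log2 1.03 ± 0.07) and Ier3 lower (log2 -0.65 ± 0.08). In non-stimulated cells Ccnd1 was lower with Batf3 (log2 -1.61 ± 0.45), at 0.927 ± 0.198 CPM in control and 0.298 ± 0.133 CPM in Batf3 cells. The interaction was called above 0 for 9 and below 0 for 2 of the 18. It was 2.64 ± 0.46 for Ccnd1, on few non-stimulated counts, and 1.06 ± 0.11 for Egr2. Egr2 was lower with Batf3 in non-stimulated cells (log2 -0.33 ± 0.10). In stimulated cells it was at 304 ± 2.97 CPM in control and 505 ± 7.78 CPM in Batf3 cells.

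For each of the 10 genes, the genes with the most similar profile over the 12 libraries were sought among the 8040 protein-coding genes whose mean was 10 CPM or more. Likeness was the root mean square difference between the log2 CPM values of a pair of genes, each centred on its mean over the 12 libraries, so a smaller value is a closer match. The closest match of all was Cflar, which encodes an inhibitor of death-receptor signalling, to Dusp2 (0.043), followed by Slc29a1 (0.0463) and Slc7a1 (0.054). Cflar was at 130 and 119 CPM in control and Batf3 non-stimulated cells and at 645 and 653 CPM in stimulated cells, beside 115, 102, 557 and 557 CPM for Dusp2. Tnf, which encodes a cytokine, was closest to Dusp4 (0.149), with Pik3r6 (0.192) and Slc1a4 (0.205) next. Dusp5 was nearest to Mcoln2 (0.0993), Atp2c1 (0.1) and Edrf1 (0.104).

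Dusp1 was nearest to Zfp513 (0.0651), Pex6 and Med25, and Dusp6 to Ipcef1 (0.0757), mt-Nd5 and Rab40c. Dusp10 was nearest to Ulbp1 (0.142), a ligand of the NKG2D receptor, and then to Nt5e (0.167) and Rad51ap1 (0.171). Ulbp1 was at 106 and 136 CPM in control and Batf3 non-stimulated cells and at 21.4 and 46.5 CPM in stimulated cells. The genes nearest to Dusp14 were farther from it, Srxn1 (0.363), Adgrg1 (0.412) and Adarb1 (0.441). Spry1 was nearest to Rgs16 (0.216), a brake on G protein signalling that was at 8.28 and 6.45 CPM in non-stimulated and 1221 and 1266 CPM in stimulated cells, before Zeb2 (0.381) and Fcrl1 (0.388). Spry2 was nearest to Cd83 (0.276), Col27a1 (0.293) and Serpinb9 (0.299), and Spred1 to Chchd4 (0.142), Per2 (0.169) and Rreb1 (0.180). A likeness of this kind rests on 4 groups of 3 libraries and is a description.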

How the data were processed

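The authors deposited 1 table of whole read counts (genes by 12 libraries), made with STAR 2.7 and featureCounts on GRCm38, per the submitters' processing notes. Per the labels' protocols, libraries came from 100 ng of RNA with a stranded poly-A kit and 15 PCR cycles. Neither the annotation release nor the strand or multi-mapping settings of the counting are given in the sources used here. Without molecular identifiers, reads are not independent molecules, so count floors cover counting error only.

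The analysis used edgeR 4.0.16 in R 4.3.3: TMM scaling, filterByExpr (15702 genes), a model of 4 group means (8 residual degrees of freedom) and robust quasi-likelihood tests, with Benjamini-Hochberg adjustment over all tested genes of a comparison and calls at an adjusted p under 0.05. Log2 changes are given ± SE, and intervals are 95% by a normal approximation. The SE came from the weights of the fit, with its variance factor kept at 1 or more. It is not part of the quasi-likelihood test, so an interval and its p-value need not match. RPKM divides CPM by merged exon length (GENCODE on GRCm38, which also gave coordinates, with 55154 of 55335 identifiers matched). Named genes are the 10 genes, up to 2 called genes a direction with the largest change from each list and comparison (where the higher group reached 1 CPM), and the 3 most similar profiles (CPM with a prior count of 2). The 10 genes and the lists were chosen with earlier results of these data known. Replicates of a group differed by more than sampling noise, which does not show that they are independent. All 12 libraries were kept. Alternatives were DESeq2 1.42.0 size factors and its Wald test, library sizes alone, no low-count filter, only the 2 groups compared, a replicate block and leaving out each library. CD4, B, myeloid, dendritic, NK and erythroid cell markers were summed as a check of the sort.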

Additional observations from a re-analysis of the deposited data

Results flagged for a closer look

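The effect of the Batf3 vector differed between stimulated and non-stimulated cells for 7 of the 10 genes, by edgeR's quasi-likelihood test of the difference itself with Benjamini-Hochberg adjustment. Of all genes tested, 14.6% had a difference called above 0 and 6.08% below 0. On the log2 scale the effect in stimulated minus that in non-stimulated cells was 1.75 for Dusp14, 0.99 for Spred1, 0.98 for Dusp10, 0.64 for Dusp4 and 0.17 for Dusp2. The Dusp2 call was lost under 4 alternatives (adjusted p between 0.066 and 0.1, and as low as 0.000891 over the others). The value was -0.59 for Dusp5 and -0.51 for Dusp6. Spred1, Dusp5 and Dusp6 were called in opposite directions in the 2 cultures. With 3 libraries a group, no group was tested for a single library far from the others.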

How the results depend on the processing

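Over 18 alternatives (17 for the interaction), 867 of 890 recomputed log2 changes of the 10 genes kept their direction and their side of the threshold. Of the others, 17 lost the call in the same direction, 1 gained it and 5 reversed. Among the reversed values, that of Dusp6 on stimulation of control cells under library sizes alone lost its call as well. Both DESeq2 alternatives changed no call on the 10 genes. Library sizes alone gave 3 genes lower with Batf3 in stimulated cells instead of 5, 2404 instead of 3617 of all genes lower with Batf3 in non-stimulated cells, and reversed values for Dusp1 (-0.0282) and Dusp6 (-0.0158) on stimulation of control cells and for Dusp2 (0.0446) with Batf3 in stimulated cells. The share of called genes that were higher with Batf3 was 41.4% and 59.9% under library sizes alone in non-stimulated cells, and 50.3% and 65.5% in stimulated cells. With only the 2 groups compared, that Dusp2 value was 0.0014, and leaving out 1 library at a time it lay between -0.0221 and 0.0187, with the sign reversed without Batf3 stimulated replicate 1. Leaving out 1 library at a time, the number of genes lower with Batf3 in stimulated cells lay between 3 and 5, with 3 without Batf3 stimulated replicate 1. Without the low-count filter, 1524 instead of 2296 of all genes had an interaction above 0. The cause of these changes was not tested. For other named genes 28 of 1696 recomputed values lost the call, and for the lists 52 of 1068 recomputed counts moved by more than 1.5 times. Depth limits Spry1 and Dusp14 in non-stimulated cells most.

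A replicate block gave 4 genes lower with Batf3 in stimulated cells and changed no other call on the 10 genes. The replicate numbers are not known to pair libraries across groups: the deviations of same-numbered libraries correlated between -0.138 and 0.0735 (18 pairs, over 9423 genes), and 4 of 12 libraries correlated best with their own number.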
